A study of Mus musculus with 12 samples.

Results

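A set of 31 genes known to be induced by transforming growth factor beta (TGF-beta) was followed in 4T1, a mammary carcinoma line of the mouse that serves as a model of triple-negative breast cancer (TNBC), with and without the label POGZ KO. The members were taken by gene symbol, and all 31 were found among the 39017 genes of the deposited count tables, where Ccn1 and Ccn2 carry their older symbols Cyr61 and Ctgf. RNA sequencing of 12 libraries gave 4 groups of 3. The groups were tumors labelled KO (genotype POGZ KO), tumors labelled VC (genotype POGZ WT), and cultures of the same line with either label. Cultures grew in DMEM with 10% FBS and were taken for RNA at 75% confluency. Tumors grew from cells placed in the fourth mammary fat pad of BALB/c mice aged 8 weeks, the strain 4T1 comes from, so the hosts had their own stroma and immune cells. They were removed after 28 days and flash frozen. RNA was ribosome-depleted. How POGZ was edited, whether the KO cells are a clone or a pool, and what the VC cells carry are not given in the sources used here. Nothing in the labels says that the 3 cultures of a group are separate clones or separate passages, so p-values measure the spread between these libraries.

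TGF-beta ligands bind serine and threonine kinase receptors, which phosphorylate SMAD proteins. These enter the nucleus, bind DNA with other factors and switch on target genes. Among the targets are the pathway's own brakes, the inhibitory SMADs and SMAD co-repressors, along with matrix proteins, integrins that release latent TGF-beta, and secreted factors. In breast tumors the pathway acts in the cancer cells, where it is known for invasion, and in fibroblasts, where it is known for matrix production. POGZ is a chromatin protein with zinc fingers and a partner of the heterochromatin protein HP1, and the series title concerns its loss, TGF-beta signaling and metastasis.

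Promoter sequence is shown for 4 members that differed between the cultures, because they hold motifs of factors that act with or beside the pathway. RefSeq promoter windows (GRCm38.p6, 250 bases before to 50 after the start) were at hand for 20 of the 31 members. The motifs searched on both strands were CAGAC, a SMAD binding element, GTCTAGAC, the palindromic SMAD element, GGAATG, bound by TEAD factors, and TGACTCA, bound by AP-1. Below, 250 bases before the start and the first 10 bases after it are printed 5′ to 3′ on the strand of the gene, and capitals mark a motif, with GTCTG and CATTCC being CAGAC and GGAATG read on the other strand. Smad6 holds the palindrome, Fstl3 holds CAGAC at 2 places, Cyr61 holds GGAATG and CAGAC, and Nuak1 holds CAGAC.
Smad6 (chr9:64022050-64022309, minus strand): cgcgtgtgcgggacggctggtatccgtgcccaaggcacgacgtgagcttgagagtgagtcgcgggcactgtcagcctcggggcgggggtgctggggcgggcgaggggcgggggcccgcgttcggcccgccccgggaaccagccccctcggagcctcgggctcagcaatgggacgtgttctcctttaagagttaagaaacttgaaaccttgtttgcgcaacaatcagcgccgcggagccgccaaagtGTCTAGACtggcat
Fstl3 (chr10:79777024-79777283, plus strand): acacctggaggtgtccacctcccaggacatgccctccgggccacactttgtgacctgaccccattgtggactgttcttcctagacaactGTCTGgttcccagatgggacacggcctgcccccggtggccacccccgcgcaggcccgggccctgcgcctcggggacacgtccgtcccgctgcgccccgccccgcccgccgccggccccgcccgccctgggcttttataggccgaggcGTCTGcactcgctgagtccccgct
Cyr61 (chr3:145649976-145650235, minus strand): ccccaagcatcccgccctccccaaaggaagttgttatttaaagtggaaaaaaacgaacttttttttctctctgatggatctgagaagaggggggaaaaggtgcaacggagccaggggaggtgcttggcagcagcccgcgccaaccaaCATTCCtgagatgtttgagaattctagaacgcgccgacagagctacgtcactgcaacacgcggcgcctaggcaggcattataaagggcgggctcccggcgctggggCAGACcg
Nuak1 (chr10:84440659-84440918, minus strand): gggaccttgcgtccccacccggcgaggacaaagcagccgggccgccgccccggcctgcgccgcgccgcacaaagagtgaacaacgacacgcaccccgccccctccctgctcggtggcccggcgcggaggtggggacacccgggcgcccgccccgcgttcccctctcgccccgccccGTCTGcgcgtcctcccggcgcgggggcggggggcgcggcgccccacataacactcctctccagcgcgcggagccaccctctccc

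CAGAC stood in the first window of 13 of the 20 members (65.0%) and in 49.6% of all 32851 windows. GTCTAGAC stood in 1 member, Smad6, with its first base 4 bases before the start, and in 0.213% of all windows. GGAATG stood in 2 members, Cyr61 and Edn1 (10.0%), against 14.7% of all windows. TGACTCA stood in the first window of 1 member, Ltbp3, against 5.2% of all windows, and there it overlaps a CAGAC. Il11 also held TGACTCA, in a window other than its first. Members were counted by their first window alone, whereas the shares of all windows count every window of a gene. Of the members with a window that were called between the cultures, CAGAC was in 4 of 8 that were higher in cultures labelled KO and in 5 of 7 that were lower. A match is a description of letters and does not show that a factor binds there.

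Libraries of tumors held 4712001 to 13043831 counts and those of cultures 14724518 to 21863223, and the 3 tumors labelled VC had the lowest totals. The biological coefficient of variation estimated by edgeR was 28.6% across tumors and 5.23% across cultures, so a member needed a far larger difference to be called between tumors. Pogz RNA went against the label. It stood at 68.4, 67.8 and 68.6 CPM (counts scaled by the library total) in cultures labelled KO, against 50.9, 52.0 and 48.1 CPM in cultures labelled VC. The groups did not overlap, and the log2 fold change of 0.45 ± 0.04 passed the test (SE; edgeR quasi-likelihood, Benjamini-Hochberg adjusted p = 3.66e-06). In tumors the Pogz value was 0.11 ± 0.20 (edgeR, Benjamini-Hochberg adjusted p = 0.944). Groups are therefore named by their labels, and every direction below is that of the libraries labelled KO against those labelled VC. Cultures held epithelial marker RNA (7 genes, 3528 to 4140 CPM summed) and, of 8 fibroblast markers, no reads of Dcn, Lum and Dpt, while Pdgfra stood at 15.3 to 28.4 CPM, Col1a1 at 1.46 to 3.07 CPM and the other 3 under 1 CPM.

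In cultures, the largest differences among the targets were rises of Ctgf, Thbs1, Nuak1 and Itgb6, each more than doubled in cells labelled KO, while Fstl3, an activin antagonist, was about halved. Smad7, an inhibitory SMAD often used as a readout of the pathway, did not pass the test. Of 31 members, 29 had enough counts to be tested. In cultures labelled KO, 14 were higher, 8 were lower and 7 were not called, by the edgeR quasi-likelihood test at a Benjamini-Hochberg adjusted p under 0.05. Over all 15705 genes tested, 23.0% were called higher and 24.9% lower, so about 7 of every 29 genes would stand on each side at the background rate. The median log2 fold change was 0.22 over the tested members and -0.01 over all genes tested. The KO and VC cultures did not overlap for 15 members that were higher and 8 that were lower, against 25.8% and 29.8% of all genes tested.

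**Figure D1:**
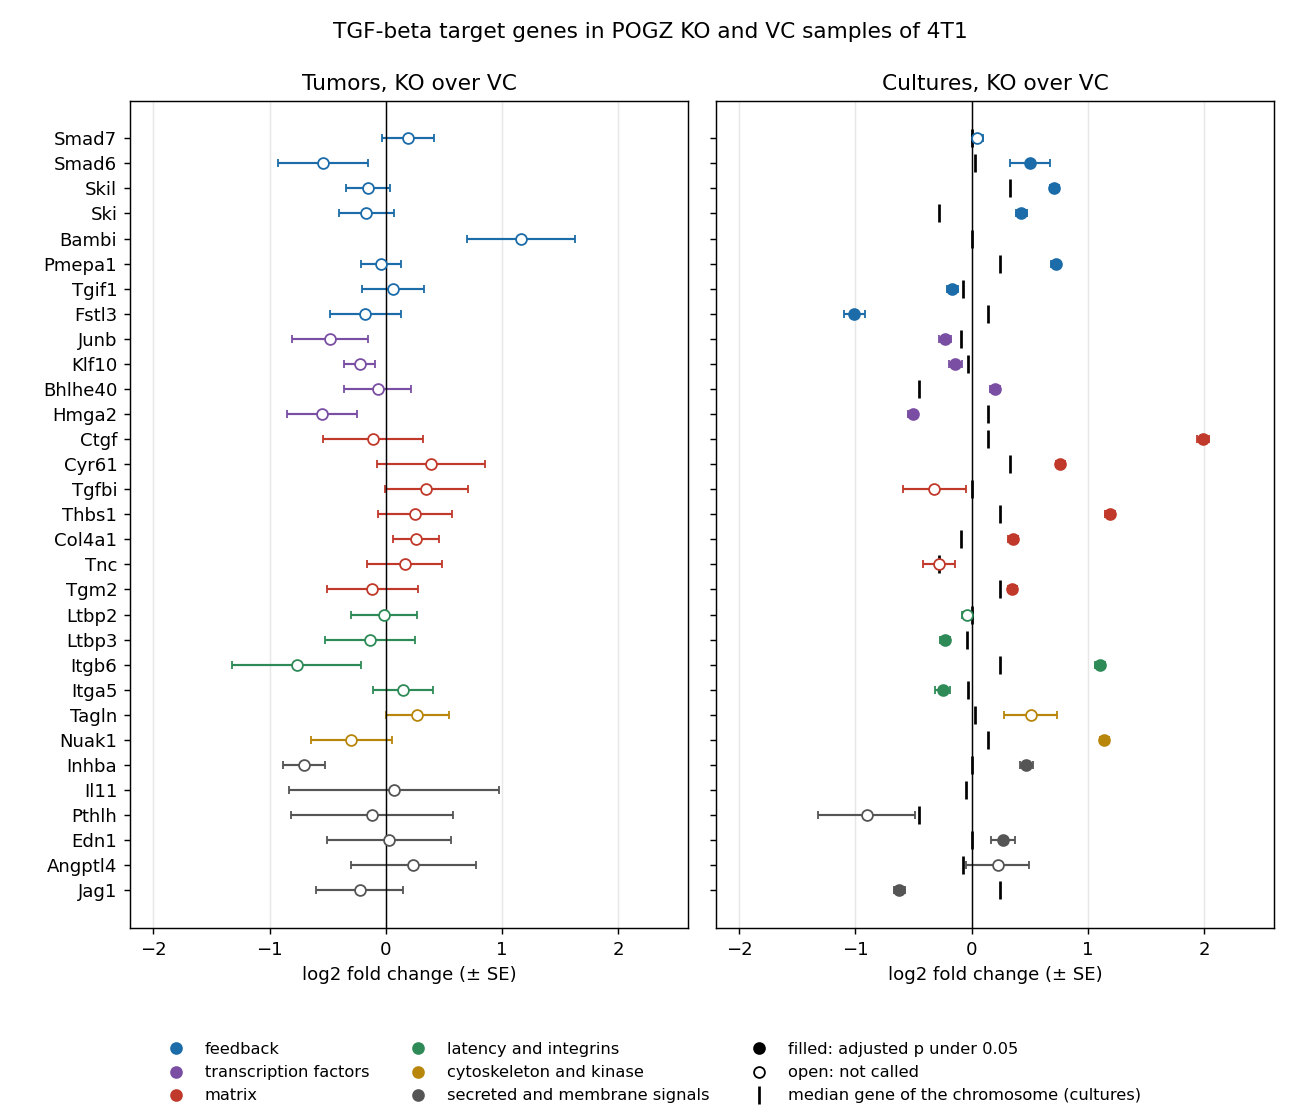
Log2 fold change with SE of each target gene, libraries labelled KO over those labelled VC, in tumors (left) and cultures (right), with members in rows by role (colors), 3 libraries per group and filled points where the adjusted p was under 0.05. Short black bars mark the median gene of each member's chromosome in cultures. Ctgf at 1.99 and Fstl3 at -1.01 lie at the ends of the filled points in cultures, and no point is filled in tumors.

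The matrix and matricellular genes moved in 1 direction where they moved. Of 7 tested in cultures, 5 were higher in cells labelled KO, 0 were lower and 2 were not called. Of all genes tested, 23.0% were higher and 24.9% lower. Ctgf, connective tissue growth factor (ENSMUSG00000019997, chr10:24595442-24598683, plus strand, GRCm38), stood at 421, 447 and 436 CPM in cultures labelled KO, against 118, 103 and 110 CPM in cultures labelled VC. Each KO library lay far above every VC library. The log2 fold change of 1.99 ± 0.05 was the largest of the members (SE; edgeR, Benjamini-Hochberg adjusted p = 6.28e-11). Cyr61, a matricellular protein of the same family, stood at 204, 201 and 210 CPM in KO cultures, against 126, 120 and 120 CPM in VC cultures. All 3 KO libraries were above all 3 VC libraries, with a log2 fold change of 0.76 ± 0.04 (SE; edgeR, Benjamini-Hochberg adjusted p = 2.21e-08).

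Thbs1, thrombospondin 1, can activate latent TGF-beta and was the most abundant member per kilobase of transcript in cultures. It stood at 3017, 3133 and 3023 CPM in KO cultures, against 1396, 1329 and 1325 CPM in VC cultures. The groups lay far apart, with a log2 fold change of 1.19 ± 0.04 (SE; edgeR, Benjamini-Hochberg adjusted p = 1.30e-09). Per kilobase its mean level was 503.5 CPM in KO cultures and 222.3 CPM in VC cultures. Smaller rises were seen for Col4a1, a basement membrane collagen chain (log2 fold change 0.35 ± 0.04), and Tgm2, a transglutaminase that crosslinks matrix proteins (0.35 ± 0.04). Tgfbi and Tnc, both secreted matrix proteins, were scarce in every culture, at 0.679 to 1.07 CPM and 4.08 to 6.22 CPM, and neither passed the test.

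The feedback genes were divided. Of 7 tested, 4 were higher, 2 were lower and 1 was not called, against 23.0% higher and 24.9% lower of all genes. Skil, which encodes the SMAD co-repressor SnoN, stood at 199.6, 206 and 196 CPM in KO cultures, against 121, 124 and 125 CPM in VC cultures. The groups did not overlap, with a log2 fold change of 0.71 ± 0.04 (SE; edgeR, Benjamini-Hochberg adjusted p = 3.34e-08). Pmepa1, a membrane protein that sequesters receptor SMADs, stood at 156, 158 and 164 CPM in KO cultures, against 99.97, 96.7 and 95.4 CPM in VC cultures. It was higher in all 3 KO libraries, with a log2 fold change of 0.72 ± 0.04 (SE; edgeR, Benjamini-Hochberg adjusted p = 2.88e-08). Ski, a co-repressor related to SnoN, stood at 101, 108 and 111 CPM in KO cultures, against 80.2, 83.3 and 76.4 CPM in VC cultures. Its groups were apart as well, with a log2 fold change of 0.43 ± 0.05 (SE; edgeR, Benjamini-Hochberg adjusted p = 8.66e-06).

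The inhibitory SMADs showed less. Smad6, which acts mainly on BMP receptors, was scarce, at 3.36, 3.33 and 3.06 CPM in KO cultures, against 2.54, 1.82 and 2.54 CPM in VC cultures. The groups did not overlap, with a log2 fold change of 0.50 ± 0.17 (SE; edgeR, Benjamini-Hochberg adjusted p = 0.0319). Smad7 stood at 46.1, 42.9 and 45.3 CPM in KO cultures, against 42.5, 44.7 and 43.5 CPM in VC cultures. The groups overlapped, and its log2 fold change of 0.05 ± 0.05 was not called (SE; edgeR, Benjamini-Hochberg adjusted p = 0.459). Bambi, a pseudoreceptor without a kinase domain, had 0 counts in all 6 cultures and was not tested there.

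Lower in cells labelled KO were Tgif1 and Fstl3. Tgif1, a homeodomain co-repressor of SMADs, stood at 60.8, 66.0 and 61.0 CPM in KO cultures, against 70.5, 72.8 and 68.3 CPM in VC cultures. All 3 KO libraries lay below all 3 VC libraries, with a small log2 fold change of -0.17 ± 0.05 (SE; edgeR, Benjamini-Hochberg adjusted p = 0.00837). Fstl3, a secreted antagonist of activins, stood at 7.18, 6.66 and 6.22 CPM in KO cultures, against 14.0, 13.6 and 12.9 CPM in VC cultures. The groups were far apart, with a log2 fold change of -1.01 ± 0.09 (SE; edgeR, Benjamini-Hochberg adjusted p = 2.54e-06).

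Of 4 transcription factors tested, 3 were lower in cells labelled KO and 1 was higher, against 24.9% and 23.0% of all genes, and the call of Klf10 among those lower was lost in 4 of 6 fits that left out 1 library. Hmga2, an architectural chromatin protein, stood at 163, 162 and 162 CPM in KO cultures, against 234, 239.6 and 222 CPM in VC cultures. The groups did not overlap, with a log2 fold change of -0.51 ± 0.04 (SE; edgeR, Benjamini-Hochberg adjusted p = 5.58e-07). Junb, an AP-1 subunit, and Klf10, a zinc finger factor induced early by TGF-beta, fell less, with log2 fold changes of -0.23 ± 0.05 and -0.14 ± 0.05. Bhlhe40, a basic helix-loop-helix repressor, was higher by 0.20 ± 0.04.

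Of 4 genes of latency and integrins, 1 was higher, 2 were lower and 1 was not called. Over all genes, 23.0% were higher and 24.9% lower. Itgb6, the integrin subunit that helps to release active TGF-beta from its latent complex, stood at 119, 116 and 119 CPM in KO cultures, against 53.6, 55.4 and 57.2 CPM in VC cultures. Every KO library was far above every VC library, with a log2 fold change of 1.10 ± 0.04 (SE; edgeR, Benjamini-Hochberg adjusted p = 1.26e-09). Ltbp3, a latent TGF-beta binding protein, and Itga5, a subunit of the fibronectin receptor, fell by 0.23 ± 0.04 and 0.25 ± 0.06 on the log2 scale. Ltbp2, a microfibril protein of the same family as Ltbp3, was at -0.04 ± 0.05 and was not called.

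Nuak1, an AMPK-related kinase, stood at 201, 202 and 199.7 CPM in KO cultures, against 91.8, 90.4 and 92.5 CPM in VC cultures. Its groups were apart by more than the spread in either, with a log2 fold change of 1.14 ± 0.04 (SE; edgeR, Benjamini-Hochberg adjusted p = 4.49e-10). Tagln, the actin-binding protein SM22, was at 1.56 to 2.03 CPM in KO cultures and 0.960 to 1.395 CPM in VC cultures, and its log2 fold change of 0.51 ± 0.23 did not pass the test (edgeR, Benjamini-Hochberg adjusted p = 0.0861).

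Of 5 secreted and membrane signals tested, 2 were higher, 1 was lower and 2 were not called. The shares over all genes were 23.0% higher and 24.9% lower. Inhba, the subunit of activin A (ENSMUSG00000041324, chr13:16011851-16031621, plus strand, GRCm38), stood at 41.4, 43.7 and 45.0 CPM in KO cultures, against 33.0, 30.6 and 31.1 CPM in VC cultures. All 3 KO libraries were higher, with a log2 fold change of 0.47 ± 0.06 (SE; edgeR, Benjamini-Hochberg adjusted p = 2.16e-05). Jag1, a Notch ligand, stood at 36.2, 38.4 and 37.3 CPM in KO cultures, against 58.3, 56.4 and 58.3 CPM in VC cultures. It was lower in all 3 KO libraries, with a log2 fold change of -0.62 ± 0.05 (SE; edgeR, Benjamini-Hochberg adjusted p = 4.79e-07). Edn1, endothelin 1, was higher by 0.27 ± 0.10. Pthlh, parathyroid hormone-related protein, and Angptl4, an inhibitor of lipoprotein lipase, lay at or under 1.14 CPM in every culture and were not called, and Il11, a cytokine of the IL-6 family, was too low to be tested.

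Of the 22 calls in cultures, 18 held with any library left out. Smad6 held in 2 of the 6 fits, Tgif1 in 3, Klf10 in 2 and Edn1 in 2. The adjusted p was highest without VC culture 2 for Smad6 (0.126), without KO culture 3 for Tgif1 (0.0668) and without KO culture 2 for Klf10 (0.168) and Edn1 (0.12), by edgeR with Benjamini-Hochberg adjustment. Whole chromosomes also differed between the cultures in their median gene. Chromosome 3, which holds Skil, Cyr61 and Pogz, had a median log2 fold change of 0.33. Chromosome 2, which holds Thbs1, Itgb6, Pmepa1, Tgm2 and Jag1, stood at 0.25, and chromosome 6, which holds Bhlhe40 and Pthlh, stood at -0.45. With these medians taken out, 14 members were still higher and 6 lower, with the calls of Klf10 and Tgif1 lost (edgeR, Benjamini-Hochberg adjusted p = 0.117 and 0.115). Ctgf was then at 1.85, Thbs1 at 0.94, Itgb6 at 0.86, Pmepa1 at 0.48 and Skil at 0.38 on the log2 scale. Nearer by, the median of the 25 closest expressed genes was 0.43 for Inhba, whose own value was 0.47, and 0.44 for Skil, whose own value was 0.71. The part of such neighborhoods in the members' values was not tested. With the chromosome medians taken out, the value of Tgm2 dropped to 0.10, while Bhlhe40 was at 0.65, Ski at 0.70 and Jag1 at -0.87.

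Of 34 other genes of the pathway (ligands, receptors, SMADs and latency proteins), 27 were tested in cultures, with 12 higher and 8 lower, against 23.0% and 24.9% of all genes tested, and a median log2 fold change of 0.07. The largest rises were those of Inhbb, the activin B subunit (1.84 ± 0.28), Eng, the co-receptor endoglin (0.61 ± 0.05), and Itgav, the integrin subunit that pairs with Itgb6 (0.53 ± 0.04). Inhbb was scarce, at 2.26, 2.78 and 2.61 CPM in KO cultures, against 0.677, 1.07 and 0.378 CPM in VC cultures. The largest falls were those of Tgfbr3, the co-receptor betaglycan (-1.07 ± 0.23), Acvr2b, an activin receptor (-0.50 ± 0.17), and Tgfbr1, the type I TGF-beta receptor (-0.42 ± 0.06).

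In tumors, no member was called between the labels. All 31 were tested, with 0 higher and 0 lower in tumors labelled KO by edgeR at a Benjamini-Hochberg adjusted p under 0.05, as for all 17153 genes tested (0.00%). By DESeq2, 0 members and 66 genes were called, and by limma-voom 0 of either. At an unadjusted p under 0.05, edgeR had 2 members, Inhba and Bambi, and 956 genes. The median log2 fold change was -0.07 over the members and 0.02 over all genes. Of the 14 members higher in cultures labelled KO, 4 had a positive value in tumors, with a range of -0.77 to 0.39, and of the 8 that were lower in culture, 2 had a positive value, with a range of -0.55 to 0.15. Of all 17153 genes tested in tumors, 9042 had a positive value. The share among all genes called in cultures was not counted, and none of these tumor values was called.

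Inhba was the member whose tumors did not overlap. It stood at 98.5, 138 and 101 CPM in tumors labelled KO, against 198, 200.0 and 154 CPM in tumors labelled VC. Every KO tumor was below every VC tumor, the opposite order to the cultures, as were 5.43% of all genes tested, while 4.96% had every KO tumor above every VC tumor. The log2 fold change of -0.71 ± 0.18 was not called (SE; edgeR, Benjamini-Hochberg adjusted p = 0.835). With all 12 libraries in 1 fit it was called, at -0.71 (edgeR, Benjamini-Hochberg adjusted p = 0.0409). That fit estimates the spread over tumors and cultures together, with a biological coefficient of variation of 20.1% against 28.6% across tumors alone. It therefore understates the spread between tumors.

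**Figure D2:**
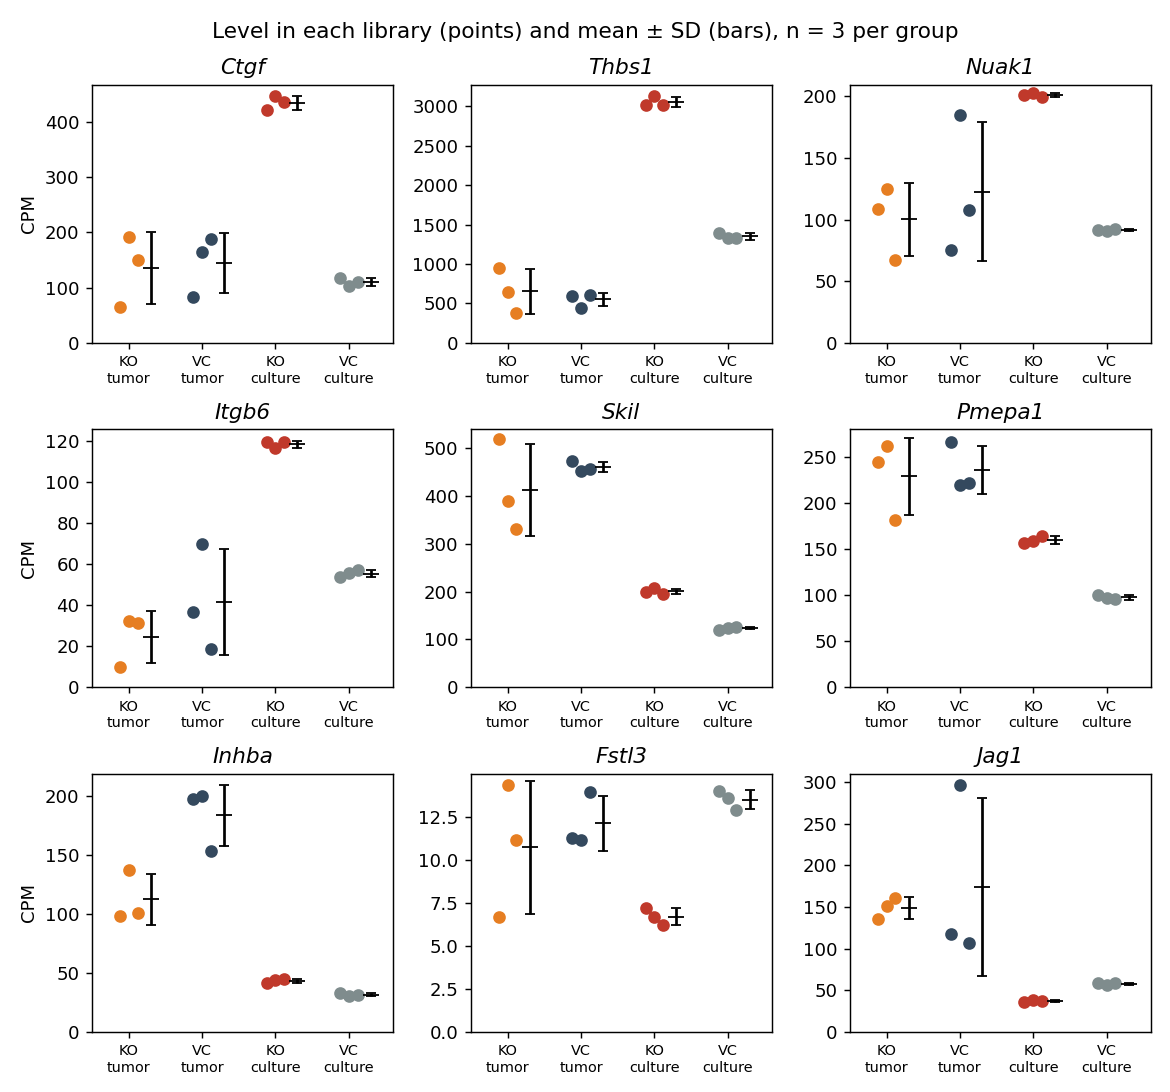
Level in CPM of 9 target genes in each library (points), with the mean and SD of each group of 3 (bars), in KO tumors, VC tumors, KO cultures and VC cultures. Ctgf, Thbs1, Nuak1 and Itgb6 separate the cultures and overlap in the tumors, whereas Inhba separates both, with KO cultures above VC cultures and KO tumors below VC tumors.

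The genes that differed most in cultures overlapped in tumors. Ctgf stood at 64.0, 191 and 150.1 CPM in KO tumors, against 83.2, 164 and 188 CPM in VC tumors. Thbs1 stood at 945, 638 and 375 CPM in KO tumors, against 595, 448 and 606 CPM in VC tumors. For both, the lowest and the highest of the 6 tumors carried the label KO. Nuak1 stood at 108, 125 and 67.4 CPM in KO tumors, against 75.3, 185 and 108 CPM in VC tumors. Itgb6 stood at 9.65, 32.3 and 31.4 CPM in KO tumors, against 36.5, 69.5 and 18.9 CPM in VC tumors. The highest tumor of each was labelled VC and the lowest KO, and the spread within a label was wide. Cyr61 stood at 38.3, 169 and 72.0 CPM in KO tumors, against 66.4, 66.2 and 79.8 CPM in VC tumors, so that 1 KO tumor was far above the rest.

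Of the feedback genes, Skil stood at 519, 388 and 330.1 CPM in KO tumors, against 473, 453 and 455 CPM in VC tumors. Pmepa1 stood at 244, 261 and 182 CPM in KO tumors, against 266, 219.6 and 221 CPM in VC tumors. The KO tumors spanned more than the VC tumors for Skil and Pmepa1, and the labels overlapped. Ski stood at 224, 136 and 131 CPM in KO tumors, against 207, 156 and 190.0 CPM in VC tumors. Smad7 stood at 102, 100.1 and 69.7 CPM in KO tumors, against 62.6, 100.3 and 75.1 CPM in VC tumors. Both overlapped between the labels. Smad6 stood at 6.27, 4.06 and 2.38 CPM in KO tumors, against 6.58, 4.92 and 7.04 CPM in VC tumors. Tgif1 stood at 144, 144 and 84.5 CPM in KO tumors, against 89.1, 153 and 113 CPM in VC tumors. These too overlapped. Bambi stood at 2.72, 2.99 and 1.31 CPM in KO tumors, against 0.637, 1.44 and 0.930 CPM in VC tumors. Its lowest KO tumor lay under its highest VC tumor, and its log2 fold change of 1.16 ± 0.47 was not called (edgeR, Benjamini-Hochberg adjusted p = 0.861).

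Of the members lower in cultures labelled KO, Fstl3 stood at 6.68, 14.3 and 11.2 CPM in KO tumors, against 11.2, 11.2 and 13.9 CPM in VC tumors. Hmga2 stood at 204, 335 and 209 CPM in KO tumors, against 242, 496 and 351 CPM in VC tumors. Jag1 stood at 135, 151 and 161 CPM in KO tumors, against 118, 297 and 107 CPM in VC tumors. The labels overlapped for each, and 1 VC tumor held the highest level of Hmga2 and of Jag1.

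RNA of other cell types varied from tumor to tumor, with summed ranges that overlapped between the labels. Summed fibroblast markers (8 genes) ran from 3504 to 6605 CPM in KO tumors and from 2349 to 3802 CPM in VC tumors, against 19.01 to 19.6 CPM in KO cultures and 27.0 to 30.3 CPM in VC cultures. Endothelial markers (8 genes) ran from 263 to 317 CPM in KO tumors and from 162 to 288 CPM in VC tumors. Macrophage and monocyte markers (8 genes) ran from 980 to 2164 CPM in KO tumors and from 716 to 1451 CPM in VC tumors, while epithelial markers ran from 1837 to 2138 CPM in KO tumors and from 1966 to 2568 CPM in VC tumors. Pericyte and smooth muscle markers (7 genes) ran from 252 to 329 CPM in KO tumors and from 209 to 275 CPM in VC tumors, and neutrophil markers (7 genes) from 132 to 521 CPM in KO tumors and from 67.1 to 442 CPM in VC tumors. T and NK cell markers (7 genes) ran from 31.9 to 107 CPM in KO tumors and from 20.03 to 42.4 CPM in VC tumors. Marker by marker, the log2 fold change between the tumor labels was positive for 8 of 8 fibroblast and 8 of 8 macrophage and monocyte markers. It was positive for 7 of 8 endothelial, 6 of 7 pericyte and smooth muscle and 5 of 7 T and NK markers. Of the neutrophil markers 2 of 6 tested were positive, and of the epithelial markers 0 of 7. The median was 1.06 over the T and NK markers and 0.86 over the fibroblast markers. In each of these 2 lists, 3 markers had an unadjusted p under 0.05 by edgeR. None of the 7 lists had a marker called between the tumor labels by edgeR after Benjamini-Hochberg adjustment. The same was true of all 17153 genes tested (0.00%), so the lack of a call does not show that the labels are alike. The part of these cell types in the members' levels was not tested. In these bulk samples, fewer cells of a type and less RNA per cell cannot be told apart.

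Whether the difference between the labels itself differed between tumors and cultures was tested as an interaction over all 12 libraries. The biological coefficient of variation in this fit was 20.1%, between the 5.23% of cultures and the 28.6% of tumors. The spread between tumors is thus understated in the interaction, and that between cultures overstated. Of 31 members, 4 had a lower effect in tumors and 0 a higher one, against 0.912% and 1.13% of all 18419 genes tested. These were Inhba, Ctgf, Skil and Pmepa1, each higher in cultures labelled KO. In tumors Inhba was at -0.71 ± 0.18. Ctgf (-0.11 ± 0.43), Skil (-0.15 ± 0.19) and Pmepa1 (-0.04 ± 0.17) lay within 1 SE of 0 there, so their sign in tumors is not settled. The tumor effect minus the culture effect was -1.17 ± 0.18 for Inhba (SE; edgeR, Benjamini-Hochberg adjusted p = 0.00742). It was -2.10 ± 0.48 for Ctgf (adjusted p = 0.0494), -0.86 ± 0.19 for Skil (adjusted p = 0.0451) and -0.75 ± 0.17 for Pmepa1 (adjusted p = 0.0478) by the same edgeR test. Inhba was called in all 12 fits that left out 1 library, with adjusted p up to 0.0334 (edgeR, Benjamini-Hochberg). Skil was called in 2, Ctgf in 3 and Pmepa1 in 4 of those 12 fits, with the same sign in each, and none of the 3 was called with any culture left out. Without tumor POGZ_KO_8454, where 1588 genes were called against 377 with all libraries, 9 members had a lower effect in tumors, Thbs1 at -1.31 and Nuak1 at -1.51 among them, and 1 a higher one. Without tumor POGZ_VC_8448 there were 2 lower and 1 higher among 629 genes, and without tumor POGZ_VC_8451 there was 1 lower among 286. At an unadjusted p under 0.05, 10 of the 31 members differed with all libraries, as did 2831 of the 18419 genes tested. DESeq2 called 5 members lower and 0 higher, among 953 genes called. Nuak1 at -1.43 ± 0.38 and Itgb6 at -1.87 ± 0.60 did not pass (edgeR, Benjamini-Hochberg adjusted p = 0.0949 and 0.155). Bambi, with 0 counts in cultures, gave no usable estimate of this difference.

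Between tumors and cultures of the same label, Tgfbi, Tnc, Tagln and Pthlh were far higher in tumors, and Thbs1 and Edn1 were lower, with either label. Of 30 members tested between KO tumors and KO cultures, 19 were higher and 5 lower in tumors, against 35.3% and 26.0% of all genes tested (edgeR, Benjamini-Hochberg adjusted p under 0.05). Of 29 tested between VC tumors and VC cultures, 20 were higher and 3 lower, against 35.7% and 29.5% of all genes tested. With either label, 3 of the members called higher would not have passed the count filter on their cultures alone. These were Bambi, Tgfbi and Pthlh with the KO label, and Tgfbi, Pthlh and Angptl4 with the VC label. Bambi with the KO label and Pthlh with either label had 0 cultures over the cutoff and so had to differ. Tgfbi had 1 culture over it with the KO label and 2 with the VC label, and Angptl4 had 2 with the VC label. Under both labels, 18 members were called higher and 2 lower, and 0 were called in opposite directions. Tgfbi and Pthlh are among the 18. Calls shared by both labels were not counted over all genes, so no background share stands beside these numbers.

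**Figure D3:**
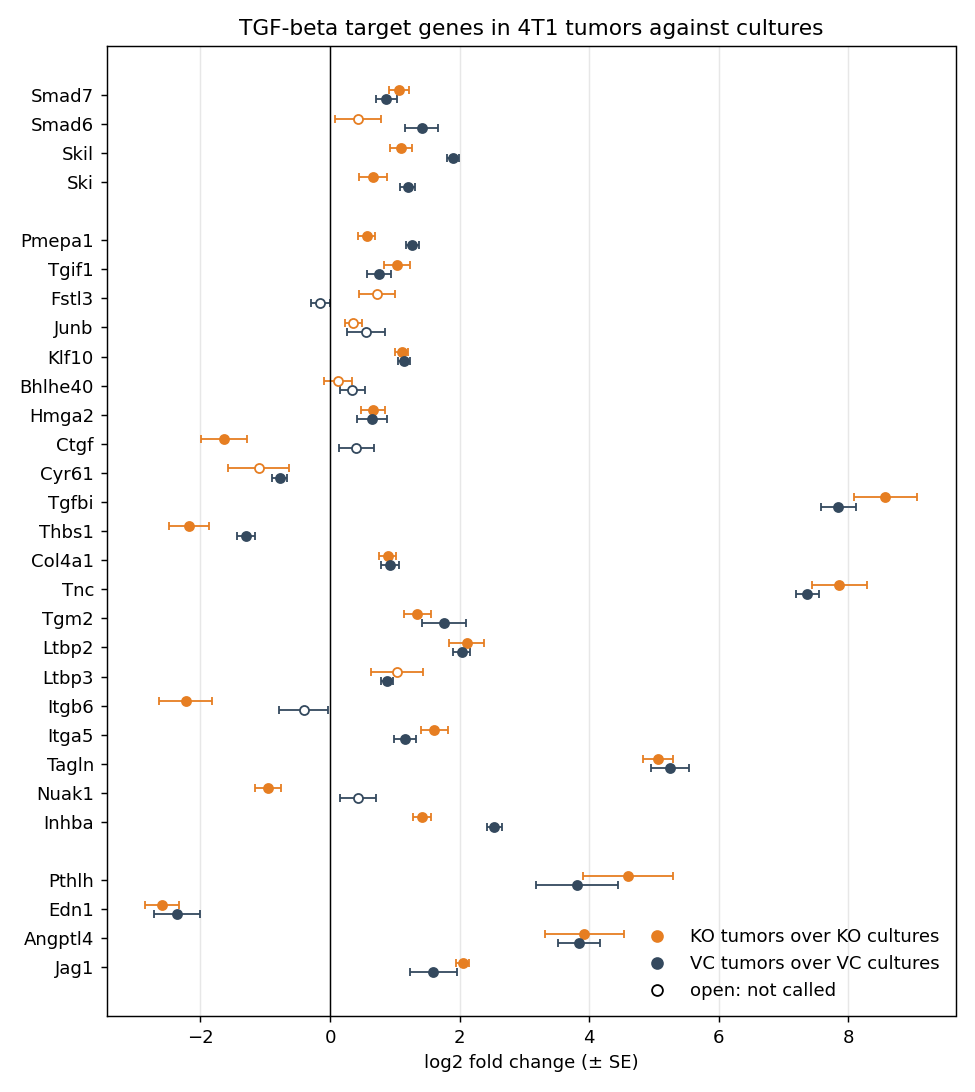
Log2 fold change with SE of each target gene, tumors over cultures, for the KO label (orange) and the VC label (dark blue), with 3 libraries per group and open points where the adjusted p was 0.05 or more. Tgfbi, Tnc and Tagln lie above 5 under both labels, Edn1 lies below -2, and Ctgf, Itgb6 and Nuak1 are filled and below 0 for the KO label alone. Bambi and Il11 are not drawn.

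Tgfbi stood at 144, 282 and 386 CPM in KO tumors, against 0.811, 0.679 and 0.686 CPM in KO cultures. Tnc, tenascin C, stood at 575, 1495 and 971 CPM in KO tumors, against 4.92, 4.08 and 4.39 CPM in KO cultures. No tumor came near a culture for either gene. The log2 fold change of Tgfbi was 8.58 ± 0.49 with the KO label and 7.85 ± 0.27 with the VC label, and that of Tnc was 7.87 ± 0.42 with the KO label and 7.37 ± 0.18 with the VC label. Tagln followed at 5.06 ± 0.23 with the KO label and 5.25 ± 0.29 with the VC label, Pthlh at 4.60 ± 0.69 and 3.82 ± 0.64, and Angptl4 at 3.93 ± 0.61 and 3.85 ± 0.32, in the same order of labels. The fibroblast markers named above were higher in tumors too, and their part in these values was not tested. Against a floor of 3 counts per library in cultures, the mean of Bambi was 13.6-fold higher in KO tumors and 6.11-fold higher in VC tumors. The floor covers counting error in the cultures but not in the tumors, and the VC tumors held 3, 12 and 7 counts. Bambi was too low to be tested between the VC samples.

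Thbs1 was lower in tumors, by a log2 fold change of -2.18 ± 0.32 with the KO label and -1.30 ± 0.14 with the VC label, and so was Edn1, at -2.59 ± 0.26 with the KO label and -2.36 ± 0.35 with the VC label. Ctgf was at -1.64 ± 0.36 between KO tumors and KO cultures and was called, while between VC tumors and VC cultures it was at 0.41 ± 0.27 and was not. Itgb6 and Nuak1 were called lower between the KO samples, at -2.23 ± 0.41 and -0.96 ± 0.21, and were at -0.41 ± 0.38 and 0.43 ± 0.28 between the VC samples without a call. Of these 3 genes, the difference between the labels passed the interaction test for Ctgf. Inhba was higher in tumors under either label, at 1.42 ± 0.14 with the KO label and 2.54 ± 0.12 with the VC label. Skil was at 1.09 ± 0.17 with the KO label and 1.90 ± 0.09 with the VC label, and Pmepa1 at 0.57 ± 0.13 with the KO label and 1.27 ± 0.10 with the VC label. Smad7 was higher in tumors as well, at 1.06 ± 0.15 with the KO label and 0.87 ± 0.17 with the VC label.

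Of the 34 other pathway genes, 32 were tested in tumors, and edgeR called 0 between the tumor labels (1 at an unadjusted p under 0.05) and 0 in the interaction (8 at an unadjusted p under 0.05, against 2831 of all 18419 genes). Between tumors and cultures, 16 of 32 were higher and 3 lower with the KO label, against 35.3% and 26.0% of all genes tested. With the VC label 20 of 32 were higher and 5 lower, against 35.7% and 29.5%. Acvrl1, Bmpr1b, Lrrc32, Itgb8 and Tgfb1i1, called higher under both labels, stood at 0.644 CPM or less in every culture. The count filter needed 0.72 CPM with the KO label and 0.768 CPM with the VC label. These genes passed it through the tumors alone and so had to differ. Inhbb stood at 0.677, 1.07 and 0.378 CPM in VC cultures, so with the VC label its cultures alone would not have passed. The 3 largest rises under either label were those of Acvrl1, an endothelial receptor of the family, Lrrc32, which tethers latent TGF-beta at the cell surface, and Itgb8, an integrin subunit that activates it. All 3 had 0 counts in the KO cultures and at most 0.0565 CPM in a VC culture, so no fold is given. The largest falls were those of Tgfb2, Smurf1 and Itgav with the KO label (-1.20, -0.37 and -0.34 on the log2 scale) and those of Tgfb2, Tgfbr2 and Zfyve9 with the VC label (-1.02, -0.73 and -0.53).

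Per kilobase of transcript, the members' levels stood in another order in tumors than in cultures. In KO tumors Tnc led at 130.4 CPM per kilobase, followed by Col4a1 at 111 and Thbs1 at 107.5. In VC tumors Junb led at 124 CPM per kilobase, followed by Tnc at 117 and Col4a1 at 93.0. Before division by length, the SD was 461 CPM for Tnc in KO tumors and 141 CPM for Junb in VC tumors, so these leading ranks do not differ beyond the spread between tumors. Thbs1 led both culture groups, followed by Ctgf at 152 CPM per kilobase in KO cultures and by Junb at 84.4 CPM per kilobase in VC cultures. Bambi was last in all 4 groups.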

How the data were processed

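The authors deposited raw counts per Ensembl gene, 1 table for the cultures and 1 for the tumors, each with 39017 genes, 1 column per library and whole numbers only. The submitters' processing notes name the mm10 genome, featureCounts 1.4.4, STAR 2.3.0e and Trimmomatic 0.32. The settings, the annotation release and the use of strand are not given in the sources used here, so reads of genes that overlap on opposite strands cannot be told apart. Genes were named and placed by Ensembl ID through GENCODE M21 on GRCm38, the same assembly as mm10, which held 37607 of the IDs. Members and lists were chosen with earlier results of these data known.

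The counts were used as deposited in R 4.3.3 with edgeR 4.0.16: filterByExpr by group, TMM scaling, the quasi-likelihood test and Benjamini-Hochberg adjustment over all genes tested, and calls were made at an adjusted p under 0.05. Each comparison held only the 2 groups compared, except the interaction, which held all 12 libraries. SE was taken as the absolute log2 fold change divided by the root of the F statistic. CPM was computed from total counts, and levels per kilobase used the exon bases of GENCODE. No member was dropped other than by the filter. Values per library are given in the text for members called in culture with an absolute log2 fold change of at least 0.5, those called in tumors or in the interaction, and the feedback genes; those of Tgfbi and Tnc were added after their values were seen. Of the pathway list, up to 3 genes in each direction with the largest called change were named. Libraries of 1 group differed by more than counting noise (chi-square per gene of 3.31 or more), so none was counted as a copy of another. That value cannot tell separate cultures from repeat preparations of 1 culture.

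Alternatives, tried 1 at a time, were RLE scaling, no filter, DESeq2 1.42.0, limma-voom (limma 3.58.1), each library left out, all 12 libraries in 1 fit, the culture number as a block, the median of each chromosome as an offset and tumor libraries thinned to 4712001 counts. After the data were seen, a fit without 3868 ribosomal and small structural RNA genes was added. Python 3.11.15 with pandas 2.3.3 read tables and drew figures.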

Additional observations from a re-analysis of the deposited data

Results flagged for a closer look

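For 4 members, the difference between the labels itself differed between tumors and cultures, by the interaction over 12 libraries (edgeR, Benjamini-Hochberg adjusted p from 0.00742 to 0.0494). The effect in tumors minus that in cultures was -1.17 for Inhba, -2.10 for Ctgf, -0.86 for Skil and -0.75 for Pmepa1 on the log2 scale. Of all 18419 genes tested, 0.912% had a lower effect in tumors and 1.13% a higher one. Inhba was called in all 12 fits that left out 1 library. Skil was called in 2 of them, Ctgf in 3 and Pmepa1 in 4, so these calls depend on single libraries. Inhba was the single member of these whose KO and VC libraries did not overlap in either system, with KO above VC in cultures and KO below VC in tumors. In cultures the median of its 25 closest expressed genes was 0.43, near its own 0.47. The interaction fit shares 1 spread between tumors and cultures, which understates the spread of the tumors.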

How the results depend on the processing

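In cultures, counts of members called higher and lower moved by over 1.5 times under 1 alternative, all 12 libraries in 1 fit, where the tumors' wider spread is shared: 5 higher (Skil, Pmepa1, Ctgf, Thbs1, Nuak1), 1 lower (Fstl3) and 1501 genes called. No member changed direction there. That fit, which understates the spread between tumors, gave 1 lower member and 64 genes between tumor labels, and DESeq2 gave 66 genes. For the interaction, no filter left 2 lower members and DESeq2 called 953 genes. Leaving out 1 library gave 0 to 1 member higher, 1 to 9 lower and 147 to 1588 genes. The 9 came without tumor POGZ_KO_8454, where Thbs1 (-1.31) and Nuak1 (-1.51) were called and Ltbp3 was called with the opposite sign, at -0.56 (edgeR, Benjamini-Hochberg adjusted p = 0.0173) against 0.11 and no call with all libraries (range -0.56 to 0.37 over libraries left out; the cause was not tested). Same-numbered cultures deviated together no more than others (correlations -0.157, 0.0417 and 0.0845, against -0.25 to 0.241 between different numbers). With 3 cultures per group, these values cannot exclude that the numbers pair them. With the number as a block, 14 members were higher, 7 lower and 7237 genes called. Other scaling moved the median of all genes by at most 0.02. Of 2039 values of members under alternatives, 60 changed sign with no call before or after and 1 (Ltbp3, above) with a call. With any tumor left out, or tumors thinned to 4712001 counts, edgeR still called 0 genes between the tumor labels.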

Other observations

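The spread of the targets between libraries of the same group was wider than the median gene's in tumors and narrower in cultures. Among members with a mean of at least 1 CPM, the median coefficient of variation was 33.1% in KO tumors and 25.6% in VC tumors. Over all genes above the same floor it was 19.9% and 18.8%. In cultures the members' median was 3.67% with the KO label and 3.57% with the VC label, against 4.81% and 5.87% over all genes above that floor. The genes were not matched to the members in level, and the part of level in these values was not tested. Of 31 members, tumor POGZ_KO_8455 held the highest level among the KO tumors for 18 and tumor POGZ_KO_8454 the lowest for 18. Among the VC tumors, POGZ_VC_8448 held the highest level for 15 members. The summed fibroblast markers were highest in POGZ_KO_8455 (6605 CPM) among the KO tumors and lowest in POGZ_VC_8448 (2349 CPM) among the VC tumors. None of these differences was tested. The tumors with the highest and lowest levels were not counted over all genes, so these counts cannot be read as particular to the targets.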
